A study of Drosophila melanogaster with 46 samples.

Results

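The ovary of adult Drosophila melanogaster females was compared with the female carcass, the body left once the ovaries had been dissected out, on 4 of 46 2-colour spotted arrays. The arrays were chosen by their titles. On 7a and 7b the ovary RNA was in channel 1 and the carcass RNA in channel 2, and on 8a and 8b the dyes were swapped. Every value was turned so that a positive log2 ratio means a higher share of the RNA in ovary. The sources used here state neither the base of the deposited logarithms nor which channel is the numerator; log2 and channel 1 over channel 2 were taken, so directions are likely and rest on known ovary and carcass genes. Both RNAs came from flies of strain y[1]w[67c], kept at 25 C and taken 3 to 5 days after eclosion, and 200 ng of poly(A) RNA went into each labelling. The whole series compares the RNA of whole flies, gonads, carcasses, sex determination mutants and germline-less flies in 15 such pairs, and its title names sex-biased expression as the subject. The comparisons set beside this one used testes and male carcasses of the same strain, and tud[1] bw[1]sp[1] females, offspring of mutant tudor mothers that lack germ cells but keep a somatic gonad and a different genetic background. Because equal RNA masses were labelled, a ratio describes a gene's share of the poly(A) RNA. In whole tissues a smaller number of cells of a type and less RNA per cell cannot be told apart.

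A fly ovary is a set of strings of egg chambers. In each chamber nurse cells, which are germline cells with highly replicated genomes, load an oocyte with RNA, proteins and organelles through shared cytoplasm, and a sheet of somatic follicle cells secretes first the vitelline membrane and then the chorion of the eggshell. Yolk proteins are made by the fat body and by follicle cells and are taken up from the haemolymph by a receptor on the oocyte. The carcass holds the flight and leg muscles, the gut, the nervous system and eyes, the fat body, the cuticle and the oenocytes that make its hydrocarbons.

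The arrays measured 13800 (7a), 14088 (8a), 9160 (7b) and 9457 (8b) of 15732 elements, each printed as a pair of spots, and the 2 spots of a pair correlated across elements at 0.962 to 0.980 on these arrays. The elements were printed as 2 subarrays, and the first subarray of 7b and 8b ran against the labels. Turned by the label, the first subarray of 7a correlated with that of 8a at 0.879 across elements, but with that of 7b at -0.876 and of 8b at -0.927. An outside measure of the direction came from 3 other comparisons, the sum of ovary over testis, testis over male carcass and male carcass over female carcass, which uses none of the 4 arrays. With this sum the first subarray correlated at 0.902 on 7a, 0.903 on 8a, -0.922 on 7b and -0.910 on 8b. The second subarray correlated with it at 0.892, 0.898, 0.903 and 0.912 in the same order. The reversal held in each of the 12 print blocks of the first subarray, from -0.961 to -0.873 on 7b and from -0.946 to -0.847 on 8b, and in none of the 12 blocks of the second. These values, 4611 of 7b and 5015 of 8b, were left out. Genes of the first subarray therefore rest on 2 arrays, 7a and 8a, and genes of the second on up to 4. The second subarray of 7a had a narrower spread (SD 0.488 over elements) than that of 8a (0.642), 7b (0.732) or 8b (0.747).

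**Figure D1:**
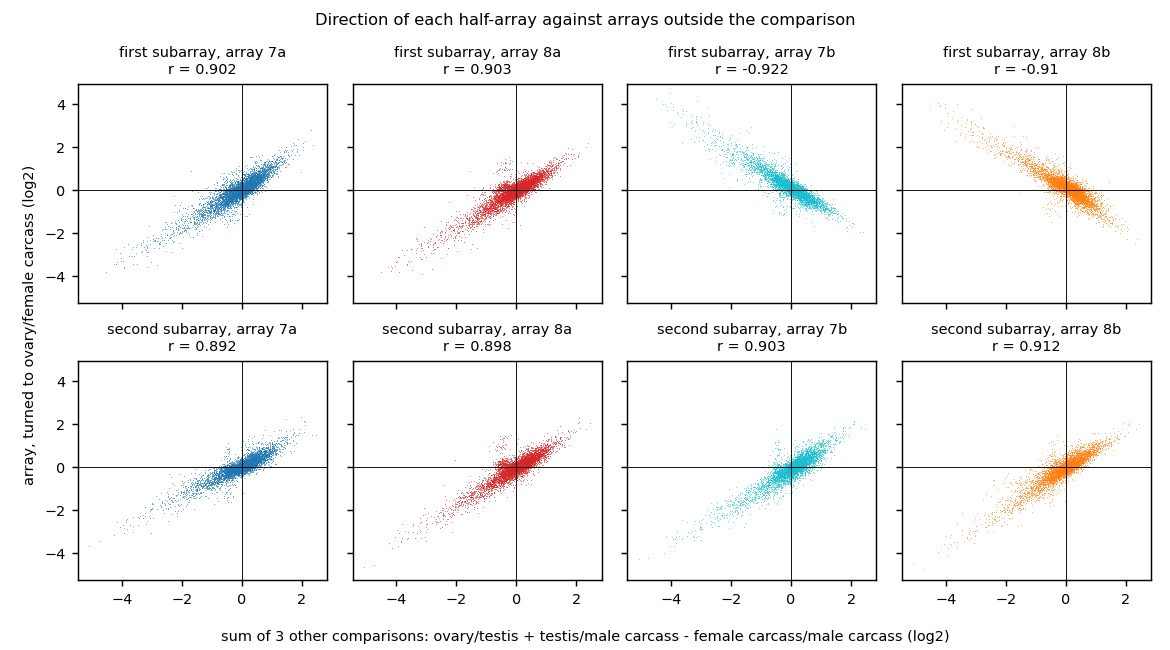
Each point is an element; the vertical axis is its log2 ratio on 1 array, turned by the label to ovary over female carcass, and the horizontal axis the summed log2 ratio of 3 comparisons that use none of these arrays. The first subarray of 7b and 8b slopes downwards (r = -0.922 and -0.910), and the other 6 half-arrays slope upwards (r from 0.892 to 0.912).

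More of the large ratios lay on the carcass side than on the ovary side. Of 13113 elements tested with limma, 2992 were called higher in ovary (22.8%) and 3314 higher in female carcass (25.3%) at a Benjamini-Hochberg adjusted p below 0.05. Each array was centred on its median, which bears on this balance, and without centring the counts were 2678 and 3565. A difference of at least 2-fold, a log2 ratio of 1, was called for 300 elements toward ovary (2.29%) and for 949 toward carcass (7.24%). At least 4-fold differences numbered 5 and 221. Over genes, with 1 element each, 2224 of 9115 were called higher in ovary (24.4%) and 2499 higher in carcass (27.4%), and the median log2 ratio of all genes tested was -0.01. Without 7a 1921 elements were called higher in ovary and without 8a 2433 higher in carcass. Of the 6306 elements called, 6185 had the same sign on every usable array that measured them. Elements called at least 2-fold different numbered 1249 on the log2 scale taken here, and would number 2479 were the logarithms natural.

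Most defining markers lay on the side of their tissue. Because the channel order was itself read from known ovary and carcass genes, this is no separate test of the direction. Of the germline markers 5 of 6 tested were called higher in ovary, and all 6 follicle cell markers tested were. All 5 muscle, 3 eye, 2 gut and 3 fat body markers tested were called higher in carcass. Among neuronal markers 3 were higher in carcass, and 1, brp, was higher in ovary. The gene for Gurken, grk, the oocyte's signal to the follicle cells, was on the array but was not called (0.14 ± 0.09).

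The 15 genes with the highest ratios included eggshell, egg activation and cell cycle genes. These 15, and the 15 lowest given below, were chosen among called genes with the same sign on every usable array. That shared sign was therefore fixed by the choice. The highest was dhd, which encodes a thioredoxin needed for meiosis and early development of the egg. On 7a dhd stood at 2.77 and on 8a at 1.99, which gave a log2 ratio of 2.38 ± 0.43 (SE, n = 2 arrays, adjusted p = 2.71e-05). Vm32E, a vitelline membrane protein, was at 1.94 on 7a, 2.27 on 8a, 2.04 on 7b and 2.14 on 8b, and its ratio was 2.10 ± 0.22 (n = 4 arrays, adjusted p = 2.07e-09). These 4 arrays lie within a narrow range far above 0. gnu, a subunit of the kinase complex that starts translation of maternal RNA at egg activation, was at 2.11, 2.05, 2.18 and 1.67 on the same arrays, a ratio of 2.00 ± 0.21 (adjusted p = 1.03e-08). Femcoat, an eggshell gene, was at 2.06 and 1.94 on 7a and 8a (2.00 ± 0.27, n = 2), with the arrays close together. Cp38, a chorion protein, was at 2.34 and 1.59 on those arrays (1.97 ± 0.48, n = 2, adjusted p = 0.000928), with the widest error of the 15, and its call was lost without 7a (adjusted p = 0.0857).

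Some others of the 15 act in the oocyte or the dividing germline. yl, the receptor that takes yolk into the oocyte, was at 2.04 on 7a, 1.78 on 8a, 2.13 on 7b and 2.01 on 8b, a ratio of 1.99 ± 0.18 (n = 4, adjusted p = 1.69e-10). Pen, an importin alpha of nuclear transport, was at 2.27 and 1.69 on 7a and 8a (1.98 ± 0.30). CycB, the mitotic cyclin B, was at 2.31 on 7a, 1.67 on 8a, 1.90 on 7b and 1.49 on 8b, so 7a was the highest and 8b the lowest of 4 arrays that were all above 0 (1.84 ± 0.16, adjusted p = 1.26e-11). BicC, an RNA-binding repressor of translation in the oocyte, was at 1.97 and 1.50 (1.74 ± 0.32). Pxt, a peroxidase-family enzyme needed for follicle development, was at 1.86 ± 0.42, and dec, an eggshell protein, at 1.79 ± 0.30. The P450 gene Cyp6a19 was at 1.91 ± 0.37. Jhbp2, CG11674 and CG13084 complete the 15, at 1.82 ± 0.21, 1.94 ± 0.38 and 1.76 ± 0.33.

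The 15 genes with the lowest ratios were mainly digestive and flight muscle genes. Cyp4g1, the oenocyte P450 that makes cuticular hydrocarbons, was at -3.46 on 7a, -4.57 on 8a, -4.23 on 7b and -4.73 on 8b, a ratio of -4.25 ± 0.17 (n = 4 arrays, adjusted p = 4.84e-20). CG12374 was equally low, at -3.70, -4.67, -4.25 and -4.44 on the same arrays (-4.26 ± 0.20). For both genes 7a was the array nearest to 0, and both lie on the second subarray, where the spread of 7a was narrow. fln, flightin of the flight muscle thick filament, was at -3.52 on 7a and -3.72 on 8a (-3.62 ± 0.28, n = 2, adjusted p = 3.88e-12). The myosin regulatory light chain gene Mlc2 was at -3.46 and -3.53 (-3.49 ± 0.30), and TpnC4, a troponin C of flight muscle, at -2.99 and -3.64 (-3.32 ± 0.29). Gut serine protease genes were at similar levels. yip7 was at -3.45 and -3.64 (-3.55 ± 0.21) and Jon65Aiii at -3.49 and -3.56 (-3.52 ± 0.22). deltaTry, a trypsin gene, was at -3.35 and -3.38 (-3.36 ± 0.30), Jon66Cii was at -3.34 ± 0.23 and Jon25Bii at -3.33 ± 0.29. The mucin gene Muc68D was at -3.51 ± 0.19. CG7214, CG10477, CG2233 and lcs, the others of the 15, lay between -3.78 and -3.33.

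**Figure D2:**
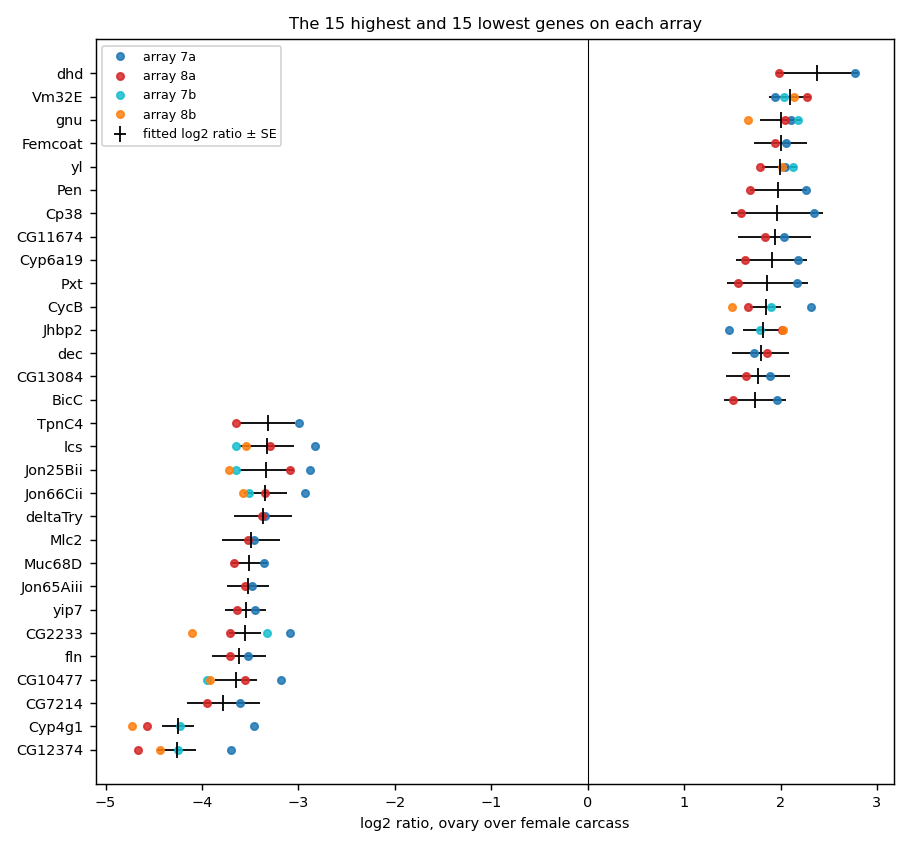
Log2 ratio of ovary over female carcass (horizontal axis) of the 15 highest and 15 lowest genes, with coloured points for the arrays and a black mark with its SE for the fitted ratio. Genes with 2 points lie on the first subarray, where only 7a and 8a were used; Cyp4g1 runs from -4.73 on 8b to -3.46 on 7a.

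Most eggshell genes were called higher in ovary, 1 was called higher in carcass and 1 was not called. Of 8 vitelline membrane genes tested 7 were called higher in ovary and 0 higher in carcass, with a median of 1.10 against -0.01 over all genes. fs(1)N, a vitelline membrane component needed for signalling at the embryo's ends, was at 1.14 on 7a, 1.23 on 8a, 1.26 on 7b and 1.20 on 8b (1.21 ± 0.17, adjusted p = 1.22e-06), and Vm26Aa at 1.07, 1.28, 1.04 and 1.13 (1.13 ± 0.12). Of 7 chorion and eggshell peroxidase genes 6 were higher in ovary, with a median of 1.34. Each list count for ovary against female carcass, here and below, stands beside 24.4% of all genes higher in ovary and 27.4% higher in carcass. yellow-g2, an eggshell gene of the yellow family, was at 1.46, 1.39, 1.62 and 1.47 (1.48 ± 0.16), and Fcp3C, a follicle cell protein, was at 1.34 ± 0.24 on 2 arrays. The exception was the peroxidase gene Pxd, at -0.51 on 7a, -1.23 on 8a and -0.12 on 8b (-0.57 ± 0.20, n = 3, adjusted p = 0.0186), a call lost without 7a or 8a. Of 6 genes that pattern the follicle cells 0 were higher in ovary, against 24.4% of all genes. In carcass 2 of the 6 were higher (33.3%), near the 27.4% of all genes. Of these, mirr and kek1 were called higher in carcass at -0.56 ± 0.09 and -0.24 ± 0.09. The call of kek1 was lost without 7a (adjusted p = 0.0683) or 8a (0.145).

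Yolk genes split by role. The receptor gene yl was high in ovary, as above, while the yolk protein genes were higher in the carcass. Yp1 was at -2.16 on 7a and -2.72 on 8a (-2.44 ± 0.41, n = 2, adjusted p = 1.32e-05) and Yp2 at -1.87 and -2.77 (-2.32 ± 0.44). Yp3 was at -1.87 on 7a, -2.67 on 8a, -2.71 on 7b and -2.33 on 8b (-2.39 ± 0.29, n = 4, adjusted p = 2.25e-08). Every array put these 3 genes on the carcass side. Against tudor females the same genes lay at -2.38 ± 0.43 for Yp1, -1.65 ± 0.46 for Yp2 and -2.28 ± 0.42 for Yp3 (n = 2 arrays each). That comparison may share ovary RNA with this one.

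Among genes of maternal RNA localisation and translation 13 of 17 were higher in ovary and 0 higher in carcass, with a median of 1.00. osk, whose product founds the germ plasm at the posterior of the egg, was at 1.60 on 7a and 1.66 on 8a (1.63 ± 0.30, adjusted p = 4.68e-05). exu, needed to localise RNA to the oocyte's anterior, was at 1.82 and 1.39 (1.60 ± 0.26). me31B, a helicase of stored maternal RNA, was at 1.60, 1.61, 1.71 and 1.36 on 7a, 8a, 7b and 8b (1.57 ± 0.17). The anterior determinant bcd was lower than these, at 0.41 ± 0.08, and was still called. Egg activation and meiosis genes were higher in ovary in 13 of 16 cases and in carcass in 0, with a median of 0.81. mtrm, an inhibitor of Polo kinase in meiosis, was at 1.82 and 1.54 on 7a and 8a (1.68 ± 0.25), and plu, another subunit of the egg activation kinase complex, at 1.10, 1.60, 1.39 and 1.36 (1.36 ± 0.15).

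Germline genes, including those of the piRNA pathway that silences transposons, were higher in ovary in 13 of 19 cases and lower in 2, with a median of 0.60. vas, the germline helicase Vasa, was at 1.44 on 7a, 1.72 on 8a, 1.89 on 7b and 1.78 on 8b (1.71 ± 0.18, n = 4, adjusted p = 6.66e-08). otu, needed for germ cell differentiation, was at 1.53 and 1.14 (1.33 ± 0.30), piwi, a nuclear piRNA effector, at 1.37 and 1.25 (1.31 ± 0.21), and krimp, a scaffold of the piRNA pathway, at 1.13 and 0.75 (0.94 ± 0.24). The 2 genes on the carcass side were tud, at -0.64 and -0.76 (-0.70 ± 0.17, adjusted p = 0.00158), and the transcription factor gene ovo at -0.21 ± 0.07. The ovo ratio came from 1 of 3 elements for that gene. The others were called higher in ovary, at 0.32 ± 0.08 and 1.21 ± 0.21. Without 7a the calls of tud (adjusted p = 0.123), krimp (0.173) and ovo (0.0869) were lost. Among the 3 members measured on all 46 arrays the list's median was -0.21.

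**Figure D3:**
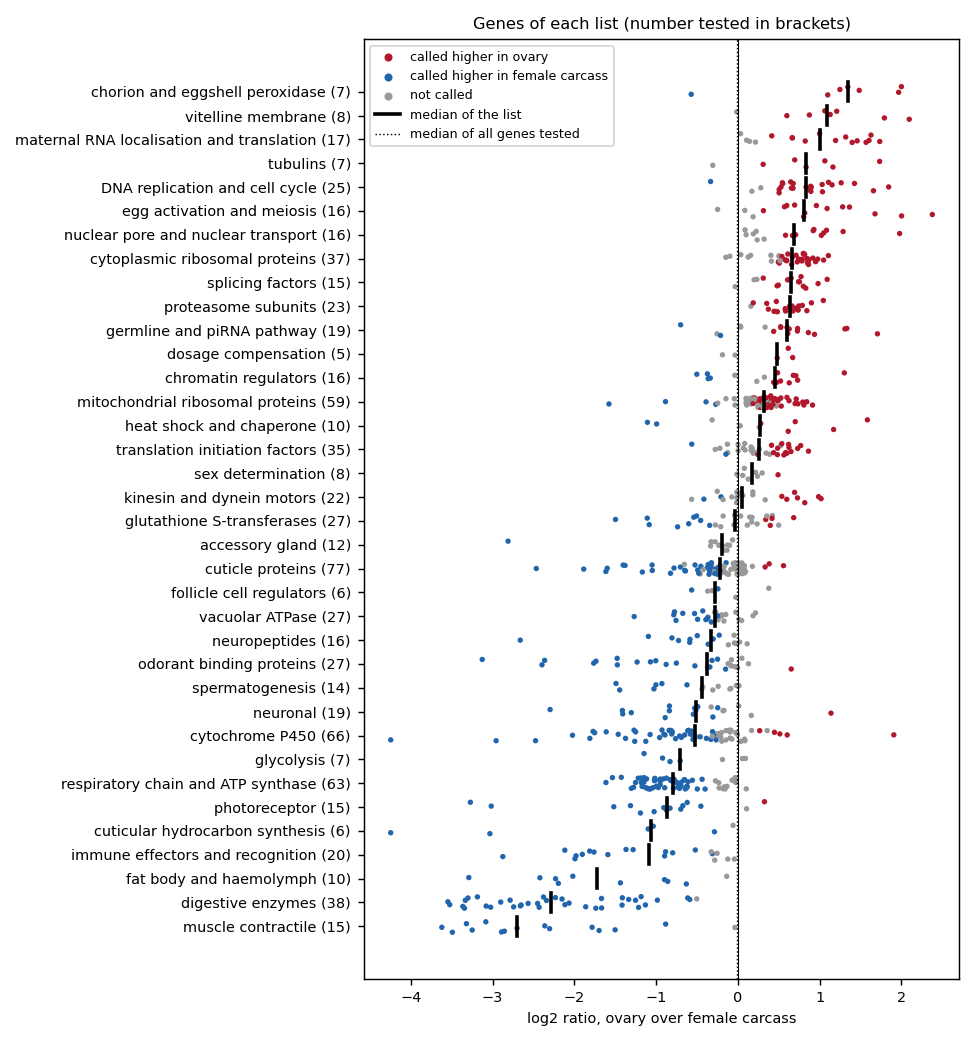
Log2 ratio of ovary over female carcass (horizontal axis) of each gene in the lists with 5 or more genes tested, coloured by its call, with a black bar at the list's median and a dotted line at the median of all genes. Medians run from -2.70 for muscle to 1.34 for chorion genes.

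Most genes of the cell cycle, nuclear transport and splicing lists were called higher in ovary. In the DNA replication and cell cycle list 22 of 25 were called higher in ovary and 1 lower, with a median of 0.83. RnrL, the large subunit of ribonucleotide reductase, was at 1.66, 1.86, 1.50 and 1.62 on 7a, 8a, 7b and 8b (1.66 ± 0.17, adjusted p = 1.62e-09), Mcm5 of the replicative helicase at 1.43 ± 0.32, and dup, its loading factor, at 1.26 ± 0.23. CycE, the cyclin of S phase entry, was called lower at -0.33 ± 0.09 by the element that stood for it, while its other element was at 0.90 ± 0.17. The first of these calls was lost without 8a (adjusted p = 0.302). Opposite calls between elements of a gene occurred for 25 of 1078 genes with several tested elements. Nuclear pore and transport genes were higher in ovary in 10 of 16 cases, with a median of 0.69. Rcc1, the exchange factor for Ran, was at 1.21 and 1.37 (1.29 ± 0.18) and Fs(2)Ket, importin beta, at 1.30 and 0.81 (1.05 ± 0.20). Splicing factors were higher in 12 of 15 cases (median 0.65). The helicase gene Rm62 was at 1.07, 0.79, 1.28 and 1.22 (1.09 ± 0.08).

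Chromatin regulators were mixed, 9 of 16 higher in ovary and 4 lower (median 0.46). These shares, 56.25% and 25%, stand beside 24.4% and 27.4% of all genes, so the lower share is near that of all genes. HDAC1, a histone deacetylase, was at 0.86 and 0.61 on 7a and 8a (0.73 ± 0.11). esc of Polycomb repressive complex was at 0.71 ± 0.12, while Su(z)12, a partner of the same complex, was at -0.50 ± 0.11. Of the genes for the male-specific dosage compensation complex 3 of 5 were called higher in ovary, msl-1 at 0.67 ± 0.19, msl-3 at 0.62 ± 0.14 and mof at 0.48 ± 0.19. Of 8 sex determination genes tested, 1 was called higher in ovary (12.5%, against 24.4% of all genes) and 0 higher in carcass. The gene called was fru at 0.49 ± 0.15, and another of its elements was at -0.28 ± 0.10. Without 7a the calls of mof (adjusted p = 0.474) and msl-1 (0.0789) were lost, while fru was at 0.12, 0.35, 0.74 and 0.76 on 7a, 8a, 7b and 8b. With 7b and 8b left out fru was at 0.24 (adjusted p = 0.383), and its call was also lost without 7b (0.0502) or 8b (0.0546) and with scaling (0.0588).

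Most cytoplasmic ribosomal and proteasome genes were called higher in ovary. Cytoplasmic ribosomal protein genes were called higher in ovary in 27 of 37 cases and lower in 0, with a median of 0.67. RpLP2, an acidic protein of the ribosomal stalk, was at 0.92, 1.10, 1.33 and 1.09 on 7a, 8a, 7b and 8b (1.11 ± 0.23, adjusted p = 0.000166). Proteasome subunits were higher in 20 of 23 cases and lower in 0, with a median of 0.63, and Prosalpha6 was at 1.20, 0.90, 1.21 and 0.87 (1.04 ± 0.15). Of 59 mitochondrial ribosomal protein genes 34 were called toward ovary and 4 toward carcass (median 0.32). mRpS18A was at 0.91 ± 0.10, and mRpS11 was the lowest, at -1.20 and -1.10 on 7a and 8a but -2.02 and -1.98 on 7b and 8b (-1.58 ± 0.23). Of 35 translation initiation factors 15 were toward ovary and 2 toward carcass (median 0.26), eIF3d1 at 0.86 ± 0.13 and eIF4G1 at -0.56 ± 0.20, whose call was lost without 7a (adjusted p = 0.327).

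Most tubulin genes, not only the maternal ones, were called higher in ovary, and chaperones were mixed. Of 7 tubulin genes 6 were higher in ovary and 0 lower (median 0.83). alphaTub67C, the maternal alpha-tubulin, was at 1.99 on 7a and 1.47 on 8a (1.73 ± 0.17, adjusted p = 1.79e-09), and gammaTub37C, the maternal gamma-tubulin, at 0.52, 1.00, 0.83 and 0.99 (0.83 ± 0.09). betaTub85D, the testis beta-tubulin, was at -0.31 ± 0.16 and was not called. The small heat shock genes Hsp26 and Hsp27 were at 1.58 ± 0.17 and 1.17 ± 0.15, whereas Hsc70-2 and Hsp68 were higher in carcass at -1.11 ± 0.22 and -0.99 ± 0.27. The call of Hsp68 was lost without 7a (adjusted p = 0.0693). In the kinesin and dynein list 7 of 22 genes were higher and 2 lower, with a median of 0.05, near that of all genes. These shares, 31.8% and 9.09%, stand beside 24.4% and 27.4% of all genes. The mitotic kinesins Klp67A and Klp10A led it at 1.02 ± 0.22 and 0.99 ± 0.19.

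Muscle and digestive genes were called higher in carcass nearly throughout their lists. Of 15 muscle contractile genes 14 were higher in carcass and 0 in ovary, with a median of -2.70. Tm2, a tropomyosin, was at -3.36 and -3.14 on 7a and 8a (-3.25 ± 0.33). The 3 actin genes tested were also on the carcass side. Act88F of flight muscle was at -1.99, -2.11, -2.75 and -2.70 (-2.39 ± 0.18) and Act87E at -0.17, -1.22, -0.55 and -1.27 (-0.80 ± 0.11), with 7a and 7b nearer to 0 than 8a and 8b for the latter. Digestive enzyme genes were higher in carcass in 37 of 38 cases (median -2.29). The proteases include close paralogs, and signal shared between them on the array cannot be separated.

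Fat body and haemolymph genes were higher in carcass in 9 of 10 cases (median -1.73). apolpp, the lipid carrier precursor of the haemolymph, was at -2.57 on 7a, -3.79 on 8a, -3.16 on 7b and -3.64 on 8b (-3.29 ± 0.12, adjusted p = 4.84e-20). The iron carrier Tsf1 was at -2.42 ± 0.33 and Adh, alcohol dehydrogenase, at -2.20 ± 0.22. Immune genes were higher in carcass in 15 of 20 cases and in ovary in 0 (median -1.09). The antifungal peptide gene Drs was at -2.29, -2.77, -3.19 and -3.25 (-2.87 ± 0.24) and BomS2, a Bomanin peptide, at -2.12 ± 0.16. In hydrocarbon synthesis 5 of 6 genes were higher in carcass (median -1.06). Fad2, the desaturase of female pheromone dienes, was at -2.31, -3.33, -3.04 and -3.45 (-3.03 ± 0.16).

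Sensory and neural genes differed less in size. Photoreceptor genes were higher in carcass in 13 of 15 cases (median -0.87), with the arrestin genes Arr2 at -2.96 and -3.58 (-3.27 ± 0.31) and Arr1 at -2.71 and -3.33 (-3.02 ± 0.22). The exception was rdgB, a lipid transfer protein, at 0.33 ± 0.10, a call lost without 7a (adjusted p = 0.404). Neuronal genes were higher in carcass in 13 of 19 cases and in ovary in 1 (median -0.51). ple, tyrosine hydroxylase, was at -2.13 and -2.47 (-2.30 ± 0.21) and Csp, a synaptic vesicle chaperone, at -1.28 and -1.33 (-1.30 ± 0.13). The single neuronal gene on the ovary side was brp, a protein of presynaptic active zones, at 0.83 on 7a and 1.45 on 8a (1.14 ± 0.22, adjusted p = 0.000102). Neuropeptide genes were higher in carcass in 10 of 16 cases, Nplp2 at -2.66 ± 0.16, and odorant binding proteins in 17 of 27, Obp56d at -3.13 ± 0.20. Obp19c was the odorant binding protein gene higher in ovary, at 0.42, 0.71, 0.53 and 0.96 (0.65 ± 0.11).

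Cuticle proteins were higher in carcass in 34 of 77 cases and in ovary in 3 (median -0.22), with Cpr92F at -2.46 ± 0.19 and TwdlR at 0.56 ± 0.14. Of 66 cytochrome P450 genes 39 were higher in carcass and 5 in ovary (median -0.52). Cyp6d5 was at -2.96 ± 0.27 and Cyp6a19 was the highest, as given above. Of 27 glutathione S-transferases 9 were higher in carcass (33.3%) and 4 in ovary (14.8%), against 27.4% and 24.4% of all genes. Their median, -0.04, was near that of all genes, and was 0.03 without 7a. GstO3 was at -1.50 ± 0.11 and GstO1 at 0.68 ± 0.14.

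Most genes of the respiratory chain were called higher in carcass. Genes of the respiratory chain and ATP synthase were higher in carcass in 50 of 63 cases and in ovary in 0, with a median of -0.79. UQCR-14L of complex III was at -1.38, -1.46, -1.64 and -1.97 on 7a, 8a, 7b and 8b (-1.61 ± 0.17, adjusted p = 9.19e-10), and SdhC of complex II at -1.31 and -1.54 on 7a and 8a (-1.43 ± 0.25). Of 7 glycolysis genes 4 were higher in carcass and 3 were not called. Pfk, phosphofructokinase, was the lowest at -0.98, -1.29, -0.93 and -1.39 (-1.15 ± 0.11). Vacuolar ATPase genes were higher in carcass in 13 of 27 cases and in ovary in 0, with 14 not called (median -0.28), Vha100-5 at -1.27 ± 0.14.

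Male gonad genes were also measured in these female RNAs. Of 14 spermatogenesis genes tested 6 were called higher in female carcass and 0 in ovary, with a median of -0.44. The carcass share, 42.9%, stands beside 27.4% of all genes, and 24.4% of all genes were called higher in ovary. The late spermatid gene w-cup was at -1.16 on 7a and -1.82 on 8a (-1.49 ± 0.32, adjusted p = 0.000434), and dj, a sperm tail protein, at -1.24 and -1.65 (-1.44 ± 0.45, adjusted p = 0.00949). Mst98Cb, another sperm tail gene, was at -0.89, -1.14, -1.30 and -0.77 (-1.03 ± 0.17, adjusted p = 8.86e-06). The call of dj was lost without 7a (adjusted p = 0.0949), and that of w-cup with arrays scaled to the same spread (0.067), while the 4 arrays of Mst98Cb were all below 0. Of 12 accessory gland genes tested 1 was called, toward carcass (8.33%, against 27.4% of all genes). This was EbpIII, a gene of the ejaculatory bulb, at -2.81 ± 0.13. In female over male carcass EbpIII was at -0.05 ± 0.13 and was not called. There, 15 of 17 accessory gland genes were called lower in female carcass and 0 higher, with a median of -1.28. Of all 8247 genes tested there, 621 were called lower in female carcass and 705 higher. The labels do not say whether the females had mated, and a part of mating in these values was not tested.

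Several of the genes named above were also called higher in female than in male carcasses, on 4 other arrays. Of the 15 genes highest in ovary 14 were tested there and 11 were called higher in female carcass, with a median of 1.17, against 8.55% of all genes tested. Of the 15 genes lowest in ovary 8 were called higher in female carcass and 0 in male carcass, with a median of 0.59. dhd was at 2.20 ± 0.30, gnu at 1.46 ± 0.21, Vm32E at 1.31 ± 0.22 and yl at 1.22 ± 0.18 in female over male carcass. Female carcass RNA may be shared by that comparison and this one. Whether female carcass RNA held ovary RNA, and its part in the ratios, was not tested. Among 8 vitelline membrane genes, 7 were tested between carcasses and 4 were higher in females, with a median of 0.55. Of the maternal RNA genes 3 of 17 were higher in females (median 0.06), of the germline genes 2 of 10 with 1 lower, and of the proteasome subunits 0 of 23 (median -0.04). Among 34 genes for cytoplasmic ribosomal proteins 18 were called toward female carcass (median 0.63). Pen, one of the 15, was at -0.54 ± 0.21 and was not called.

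**Figure D4:**
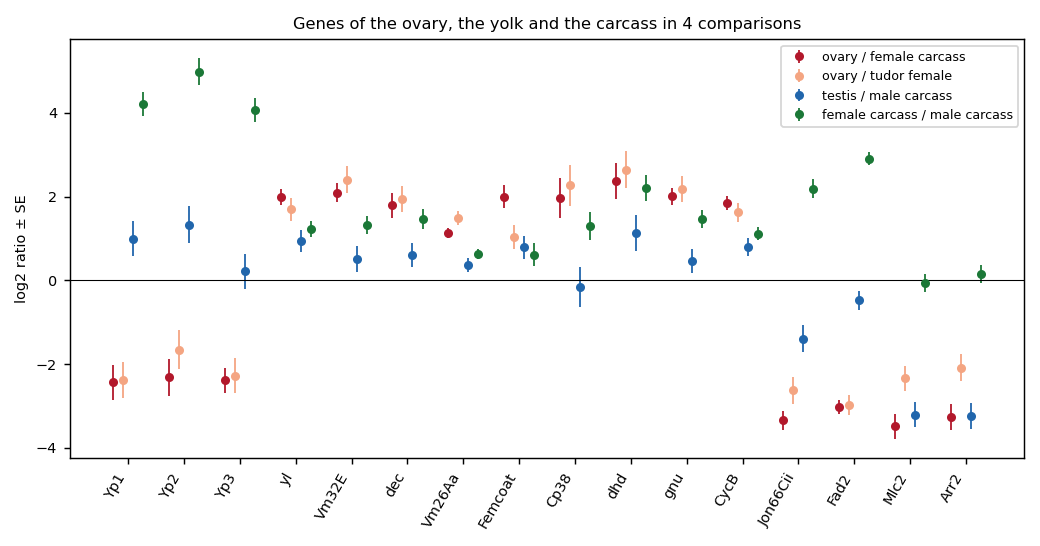
Fitted log2 ratios with SE (vertical axis) of 16 genes in ovary over female carcass, ovary over tudor female, testis over male carcass and female carcass over male carcass. The yolk genes lie near -2.4 in ovary over female carcass and above 4 between carcasses, and dhd is above 2 in both.

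The difference between gonad and carcass was then compared between the sexes. Testis over male carcass was measured on 2 arrays of other RNAs, and the difference of the 2 ratios was tested for 12140 elements. The ratio in females was above that in males for 1843 elements (15.2%) and below it for 2205 (18.2%). With all arrays scaled to the same spread 2271 elements differed rather than 4048. Of 8542 genes tested in both sexes, 710 were called higher in both gonads, which is 35.2% of the genes called higher in ovary and 32.8% of those called higher in testis. Over all 8542 genes 25.4% were called higher in testis and 23.6% in ovary. In both carcasses 1624 were called higher, 66.0% of the female and 67.0% of the male carcass genes, where 28.4% of all genes were called higher in male carcass and 28.8% in female carcass. Opposite calls were made for 149 genes, higher in ovary but in male carcass, and for 188, higher in female carcass but in testis.

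Genes with the largest differences toward females were not the genes highest in ovary, apart from Cp38. Gabat, GABA transaminase, was at 0.72 on 7a and 0.23 on 8a in ovary over female carcass (0.48 ± 0.17), but at -1.50 and -1.85 in testis over male carcass (-1.68 ± 0.17). Its difference was 2.16 ± 0.24 (adjusted p = 3.82e-08), although its call in females was lost without 7a (adjusted p = 0.278). CG6293 was at 1.12 and 0.86 in females and at -1.10 and -1.13 in males (difference 2.10 ± 0.32). Cp38 was at -0.04 and -0.27 in males, with a difference of 2.12 ± 0.67 (adjusted p = 0.0143), lost without 7a (adjusted p = 0.148). Cyp1, a cyclophilin, was not called in females (0.78 ± 0.33) and was at -1.27 ± 0.33 in males. Cyp313a1 was lower in both sexes, at -0.93 ± 0.19 and -3.03 ± 0.23. Largest toward males were CG12861, CG12860, w-cup, CG12699 and dj, with differences from -4.43 to -4.10. With arrays scaled to the same spread the calls of CG12861 (adjusted p = 0.0731) and CG12699 (0.111) in ovary over female carcass were lost. w-cup was at 2.91 and 2.76 in males, against the negative values given above.

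By list, many ribosomal, digestive and sperm genes passed the test of the difference. Of 36 cytoplasmic ribosomal protein genes tested for the difference 28 were above in females and 2 below, and their median in testis over male carcass was -0.57. Proteasome subunits were above in females in 11 of 23 cases and below in 0, and splicing factors in 9 of 15 and 0. Digestive enzymes were below in 24 of 38 and above in 0, with medians of -2.29 in females and -1.14 in males. Muscle genes were at -2.70 and -2.73, with 1 of 15 called different. Spermatogenesis genes were below in 13 of 14. Each count stands beside 15.2% and 18.2% over all elements.

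**Figure D5:**
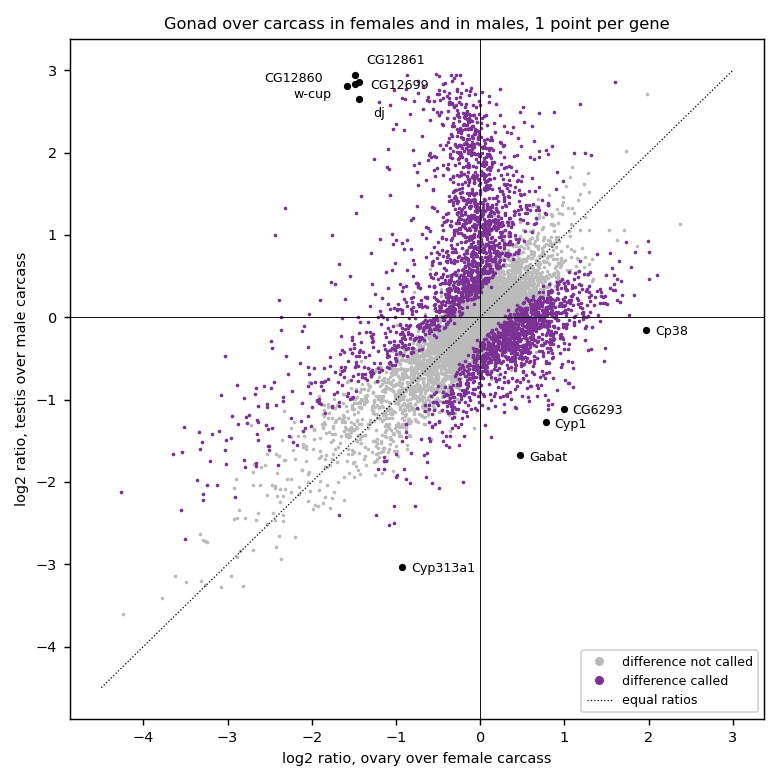
Each point is a gene, with the log2 ratio of ovary over female carcass on the horizontal and of testis over male carcass on the vertical axis; purple points passed the test of the difference, and black points are the 10 genes with the largest differences. CG12861, w-cup and dj lie near -1.5 and above 2.6, and Gabat at 0.48 and -1.68.

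Few elements were called different when the ovary was set against germline-less females in place of the carcass. The difference between ovary over female carcass and ovary over tudor female was called for 12 of 11488 elements above 0 (0.104%) and for 156 below (1.36%). Ovary RNA may be shared between them, both tudor arrays have 1 dye orientation, and the background of the flies differs. After scaling all arrays to the same spread 29 elements differed rather than 168, with 17 above 0 and 12 below, so the excess below 0 was not kept. Without 7a 78 elements differed and without 8a 64. The calls of Vajk2, CG11776, Strn-Mlck and hlk, named next, were among those lost with scaling. With no dye term these calls were also lost, as were those of Vajk3, CG13185 and mat (adjusted p from 0.0501 to 0.238). Without 7a the genes named below 0 rest on 8a alone in ovary over carcass. Their differences then ran from -2.09 for Vajk3 to -1.525 for hlk. The largest differences below 0 were Vajk2, at -2.91 on 7a and -3.01 on 8a (-2.96 ± 0.34) but -0.68 ± 0.35 against tudor females, Vajk3, CG11776, Strn-Mlck and hlk. Strn-Mlck, a kinase-like muscle protein, was at -2.86 ± 0.31 and -0.97 ± 0.32. Muscle contractile genes were below in 5 of 15 cases, with medians of -2.70 and -1.41. Largest above 0 were CG4363, CG13185, mat, CG6073 and Obp19b, with differences from 0.81 to 1.47. Without 7a the calls of CG4363 (adjusted p = 0.0543), CG13185 (0.0957), mat (0.148) and CG6073 (0.0724) were lost, and those of CG13185 and mat also without 8a. With arrays scaled to the same spread CG13185 (0.0518) and CG6073 (0.0603) were lost. CG6073 was at 1.00 and 0.86 (0.93 ± 0.13), against -0.08 ± 0.13 for ovary over tudor female.

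The chromosomes were described by the same calls. Of 50 genes tested on chromosome 4, 28 were called higher in carcass (56%) and 3 in ovary (6%), with a median of -0.48. On chromosomes 2 and 3, of 7276 genes 28.0% were higher in carcass and 24.3% in ovary (median -0.02). The fourth chromosome's shares on the first subarray were 14 of 29 in carcass and 1 in ovary, and on the second 14 of 21 and 2. The 3 genes higher in ovary were CG11076 at 0.92 ± 0.13, gw, a translational silencing factor, at 0.39 ± 0.10, and Crk, a signalling adaptor, at 0.27 ± 0.11, and they are named because they were few. In testis over male carcass 36 of 51 chromosome 4 genes were higher in carcass and 2 in testis, against 26.5% and 29.1% of all genes tested. On the X, of 1440 genes 28.9% were higher in ovary and 23.1% in carcass (median 0.04), and 5.00% were at least 2-fold higher in carcass against 8.60% on chromosomes 2 and 3. The X shares on the first subarray were 29.6% in ovary and 21.4% in carcass (median 0.06), against 24.6% and 28.2% on chromosomes 2 and 3. On the second subarray the X was closer to chromosomes 2 and 3, at 27.9% and 25.7% (median 0.005) against 24.1% and 27.7%. These shares are descriptions and were not tested.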

How the data were processed

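Poly(A) RNA of ovaries and of female carcasses was labelled by random priming and hybridised to spotted arrays, per the labels' protocols. Per spot, the authors deposited a log ratio of both channels, read here as log2. How they corrected background, normalized and filtered spots is not stated in these sources. Arrays were centred on their medians, and the 2 spots of an element were averaged. All 46 arrays were fitted together with limma 3.58.1 (R 4.3.3), with a term for each of 15 comparisons and 1 for the dye. Arrays were treated as independent, so an SE rests on 1 variance per element moderated over all comparisons. The labels do not say whether the a and b arrays are separate RNA extracts, so p-values measure the spread between arrays, which may be technical. An element was tested when at least 2 arrays measured it, and called if its p, adjusted by Benjamini-Hochberg, was below 0.05 over all elements of a comparison. Differences between comparisons were contrasts of the same fit. The number of arrays limits the precision.

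Of 15732 elements 12587 have 1 gene in the platform annotation, 73 have several and the others none, and 12107 matched RefSeq genes of Release 6 by identifier. For a gene with several elements, the one measured on most arrays was used. In data simulated for ovary against female carcass over 13113 elements, 87% of 100 elements changed by a log2 ratio of 1 were called. Of 50 changed by 0.5, 56% were called, and of 12913 unchanged elements 4 were. The simulation drew independent normal noise and changed far fewer elements than the 6306 called in the real data. Its rates therefore do not carry over to these calls. The members and gene lists were chosen with earlier results of these data known, and the membership of some lists was corrected after values were seen. Genes named are the 15 highest and 15 lowest called with the same sign on every usable array. Also named are up to 4 called members of a list with up to 2 called the opposite way. The last are the 5 largest differences each way among those called. The genes grk, bcd, betaTub85D, CG11076, gw and Crk fall outside this rule and were chosen after their values were seen. A planned description of promoter motifs was not made. Alternatives were the centring, scaling, dye term, hybridisation as a block, treatment of the first subarray of 7b and 8b, spots used, complete elements and leaving out each array.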

Additional observations from a re-analysis of the deposited data

Results flagged for a closer look

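For gonad over carcass, the 10 genes given here have the largest differences between females and males among genes that passed the test of the difference. That they pass it was therefore fixed by the choice. Toward females the differences were 2.16 for Gabat, 2.12 for Cp38, 2.11 for Cyp313a1, 2.10 for CG6293 and 2.05 for Cyp1. Toward males they were -4.43 for CG12861, -4.39 for CG12860, -4.33 for w-cup, -4.30 for CG12699 and -4.10 for dj.

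The half-arrays left out carried signal. With the sum of the other comparisons the first subarray of 7b correlated at -0.922 and that of 8b at -0.910 across elements, against -0.07 to 0.05 on the 2 arrays of mixed-sex RNA.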

How the results depend on the processing

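No call of ovary against female carcass changed sign among the calls shared with any alternative. Elements called higher in ovary numbered 1921 to 2875 and higher in carcass 2433 to 3253 when 1 array was left out. Differences from testis over male carcass then numbered 3108 to 3905, and from ovary over tudor female 64 to 148. Without 7a or 8a each element of the first subarray rests on 1 array, which is assumed to vary like the other comparisons. A list median counted as moved if it shifted by at least the SD of that list's medians on 7a and 8a. This SD rests on 2 values and leaves out 7b and 8b. Of 38 list medians 12 moved without 7a, 9 without 8a and 25 with arrays scaled to the same spread. With scaling the median list kept 0.755 of its value and 0 changed sign. Without 7a the accessory gland median was -0.36 rather than -0.20 and that of dosage compensation 0.29 rather than 0.48, and without 8a the accessory gland median was -0.0948. The glutathione S-transferase median turned to 0.03 and 0.002 in these fits. With arrays scaled to the same spread 2271 elements differed from males and 29 from tudor females. The count for tudor females was 52 with no dye term, 278 with hybridisation as a block, 108 without 7b and 8b, 88 with 1 spot per element and 263 with the dye orientation of the half-arrays exchanged, an alternative chosen after seeing the data. Among 4359 elements measured on all arrays, fewer by construction, the 4 counts were 983, 1257, 1492 and 70. As natural logs 2479 elements would be at least 2-fold different.

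With the first subarray of 7b and 8b kept as deposited, opposite arrays cancel, and the counts were 1393 higher in ovary, 1831 higher in carcass and 53 for tudor females. Ratios then crossed 0 for Pxt (-0.033), dec (-0.00257), BicC (-0.0504), brp (-0.21), HDAC1 (-0.0718) and mof (-0.0301), and for CG7214 (0.0709), yip7 (0.22), Jon65Aiii (0.18), Mlc2 (0.18), deltaTry (0.26), Yp1 (0.12), Yp2 (0.0271), Arr1 (0.15), SdhC (0.11), Hsp68 (0.07996) and CG12699 (0.0368). Differences from tudor females crossed 0 for Vajk2 (0.47), Vajk3 (0.42), CG11776 (0.15), Strn-Mlck (0.87) and hlk (0.72). No paired analysis was possible because each array already holds both RNAs as 1 ratio and the comparisons set side by side share no replicate numbers.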
